A study of Mus musculus with 4 samples.

Results

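The Wnt ligands, the Frizzled receptors and the secreted modulators of their signal were followed in RNA-seq of mouse motor neuron (MN) cultures with and without *Patz1*. The genes were taken by symbol from the count files: 19 *Wnt*, 10 *Fzd*, 4 *Sfrp*, 4 *Dkk* and 4 *Rspo* genes, together with the co-receptors *Lrp5* and *Lrp6*, the transcription factors *Lef1* and *Tcf7*, and *Axin2*. These are 46 of the 23420 genes listed. Of the 46, 34 reached 10 counts in at least 2 libraries and could be tested, among 14394 such genes in all. The WT group held 2 libraries from E14 cells, an established mouse embryonic stem cell (mESC) line, and the *Patz1* KO group held 2 libraries from E14 cells of genotype *Patz1* -/-, made with CRISPR/Cas9. *Patz1* encodes a zinc finger protein that binds G-rich DNA. Both groups were differentiated as embryoid bodies with retinoic acid and a smoothened agonist, which mimics Sonic hedgehog, to give cervical MNs. No WNT protein is part of that protocol as the study describes it, although the undifferentiated cells were kept with a GSK3 inhibitor, a compound that turns on Wnt signalling. Several *Patz1* KO lines were made in the study, and which of them gave each library is not stated in the labels. The study describes its biological replicates as separate differentiations, so the p-values measure the spread between differentiations, and not that between KO lines where both KO libraries came from 1 line. The sample titles name ESCs, whereas the source and cell type labels name MNs.

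WNT ligands are secreted, lipid-modified proteins that bind Frizzled receptors. With LRP5 or LRP6 as co-receptor they stop the breakdown of β-catenin, which then acts with TCF/LEF factors on target genes, and through other routes they act on planar cell polarity without β-catenin. R-spondins keep Frizzled receptors on the cell surface, SFRP proteins bind ligands outside the cell, and DKK1, DKK2 and DKK4 block the LRP co-receptors. In the embryonic spinal cord, Wnt genes of the roof plate act on dorsal progenitors, while Sonic hedgehog from the floor plate patterns the ventral side where MNs arise.

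Promoter sequences are shown for 4 genes that changed in the KO and have an entry in the RefSeq promoter table (GRCm38.p6), a ligand that rose, an R-spondin and an SFRP that fell, and the feedback gene *Axin2*. They were chosen after their values were seen. Each line gives the 250 bases before the transcription start on the strand of the gene, with matches to the G-rich word GGGAGGGG in capitals. The windows are chr6:91411354-91411603 on the minus strand for *Wnt7a*, chr4:124986180-124986429 on the plus strand for *Rspo1*, chr3:83766071-83766320 on the plus strand for *Sfrp2* and chr11:108920099-108920348 on the plus strand for *Axin2*.
Wnt7a: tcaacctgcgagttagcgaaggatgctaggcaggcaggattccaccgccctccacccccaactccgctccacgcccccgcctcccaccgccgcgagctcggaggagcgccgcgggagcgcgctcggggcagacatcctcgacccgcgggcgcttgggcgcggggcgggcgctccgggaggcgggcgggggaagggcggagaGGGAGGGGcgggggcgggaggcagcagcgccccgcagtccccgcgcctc
Rspo1: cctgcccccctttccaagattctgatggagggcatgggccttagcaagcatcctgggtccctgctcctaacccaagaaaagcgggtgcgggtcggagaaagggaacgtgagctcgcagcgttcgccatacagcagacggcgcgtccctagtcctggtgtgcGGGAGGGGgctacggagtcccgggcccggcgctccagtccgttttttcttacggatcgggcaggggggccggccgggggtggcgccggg
Sfrp2: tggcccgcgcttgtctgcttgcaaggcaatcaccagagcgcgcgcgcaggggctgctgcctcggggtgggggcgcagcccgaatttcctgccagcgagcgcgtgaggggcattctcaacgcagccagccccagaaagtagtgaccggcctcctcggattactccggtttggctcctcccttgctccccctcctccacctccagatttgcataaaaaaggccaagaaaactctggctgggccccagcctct
Axin2: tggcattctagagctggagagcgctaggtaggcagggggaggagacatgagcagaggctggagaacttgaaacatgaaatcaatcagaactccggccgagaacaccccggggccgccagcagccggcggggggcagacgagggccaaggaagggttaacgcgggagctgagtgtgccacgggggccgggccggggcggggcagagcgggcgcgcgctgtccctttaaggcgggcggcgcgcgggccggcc
The promoters of *Wnt7a* and *Rspo1* held 1 match each, although *Wnt7a* rose and *Rspo1* fell, and those of *Sfrp2* and *Axin2* held none in this window. Both strands were searched. The word was present upstream of 14 of the 30 Wnt genes with an entry (46.7%), against 12.1% of all 27025 genes in the table. Among tested genes with an entry it was present for 8 of 22 Wnt genes (36.4%) and 17.7% of all. The Wnt genes were also richer in G and C, with a median GC content of 66.8% in this window against 60% for the tested genes and 52.4% for all promoters. Among the tested Wnt genes, 4 of the 13 that passed the test for a change (30.8%) and 4 of the 9 that did not (44.4%) held the word. The core word CTTTGA of TCF/LEF sites, which does not overlap the G-rich word, was present upstream of 5 of the 30 Wnt genes (16.7%) and 15.8% of all genes. Among tested genes it was present for 5 of 22 Wnt genes (22.7%) and 12.5% of all, and it was found for 1 of the 13 Wnt genes that changed (7.69%) and 4 of the 9 that did not pass (44.4%). Among the 4 promoters shown, none held it. A match describes letters only, and binding of PATZ1 was not measured in these libraries.

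The libraries held 14769104 to 23881522 counts, and levels are given as CPM, the count scaled to a common library size (with TMM factors). *Patz1* itself fell from 92.8 ± 1.96 to 45.1 ± 3.58 CPM (SD, n = 2), a log2 fold change of -1.04 ± 0.10 (SE, edgeR adjusted p = 9.93e-08), so transcripts of the edited gene were still counted in the KO. Among all genes tested, 24.0% were higher and 23.4% lower in the KO, and the marker lists are to be read against these shares. Markers of MNs were abundant in both groups, and 7 of 8 were higher in the KO, with a summed level of 599 to 643 CPM in WT and 939 to 1031 CPM in KO. Markers of pluripotent cells summed to 5.40 to 8.49 CPM. Endoderm markers fell in 8 of 10 tested cases, from sums of 154 to 183 CPM in WT to 23.8 to 25.1 CPM in KO, and mesoderm and mesenchyme markers fell in 8 of 9 tested cases, from 169 to 188 CPM to 21.0 to 21.8 CPM. *T* and *Msgn1*, which define early mesoderm, were at 3 or fewer counts in every library. Floor plate markers fell in 5 of 6 cases, from sums of 870 to 879 CPM to 564 to 634 CPM. Endothelial markers fell in 4 of 6 cases, from 10.7 to 12.5 CPM to 3.75 to 5.98 CPM. Among the markers that fell, *Ttr* (endoderm), *Foxc2* and *Lum* (mesoderm and mesenchyme) and *Tie1* (endothelium) reached 10 counts in WT only. That selection favours their calls of lower. Neural crest markers rose in 2 and fell in 4 of 8 cases, and their summed levels overlapped between groups. Ventral progenitor markers rose in 4 and fell in 1 of 8 cases, with overlapping sums, and of 9 midbrain and hindbrain markers 3 could be tested and all 3 were called. Named after their values were seen, these were *En1*, *Pax8* and *En2*. *En1* was higher, with 10 and 9 counts in WT and 43 and 36 in KO. *Pax8* was higher, with 1 and 2 counts in WT and 24 and 20 in KO. It reached 10 counts in KO only, and that selection favours its call of higher. *En2* was lower, at 4.36 and 4.15 CPM in WT and 2.64 and 1.67 CPM in KO (65 and 66 counts in WT and 64 and 28 in KO). *Otx2* and *Fgf8* of that list were at 3 or fewer counts in every library. The MN, endoderm, mesoderm, floor plate and endothelial lists thus moved with the genotype, and their part in the Wnt results was not tested. In bulk RNA, fewer cells of a type and less RNA per cell cannot be told apart.

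Of the 34 tested Wnt genes, 19 passed the threshold (edgeR quasi-likelihood test, adjusted p below 0.05), 6 higher and 13 lower in the KO. Across all genes 47.4% passed, 24.0% higher and 23.4% lower, so much of the transcriptome differed between the groups and the Wnt share of 55.9% lies near that background. The levels of the groups did not overlap for 27 of the 34 Wnt genes, against 73.9% of all genes tested. The median log2 fold change was -0.27 over the tested Wnt genes and -0.0014 over all genes, and the median size of the change without regard to sign was 0.59 and 0.34. Among the tested Wnt genes, 12 of 34 were called with a change over 2-fold, against 1840 of all 14394 genes tested. Of the 34, 4 genes reached 10 counts in 1 group only, *Rspo1*, *Rspo3* and *Sfrp5* in WT and *Wnt16* in KO. Selection through 1 group favours a call, and these 4 were all called and are among the 12. Without them 15 of 30 were called, 5 higher and 10 lower, with a median of -0.21. The plot of levels by library gives the 19 called genes.

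**Figure D1:**
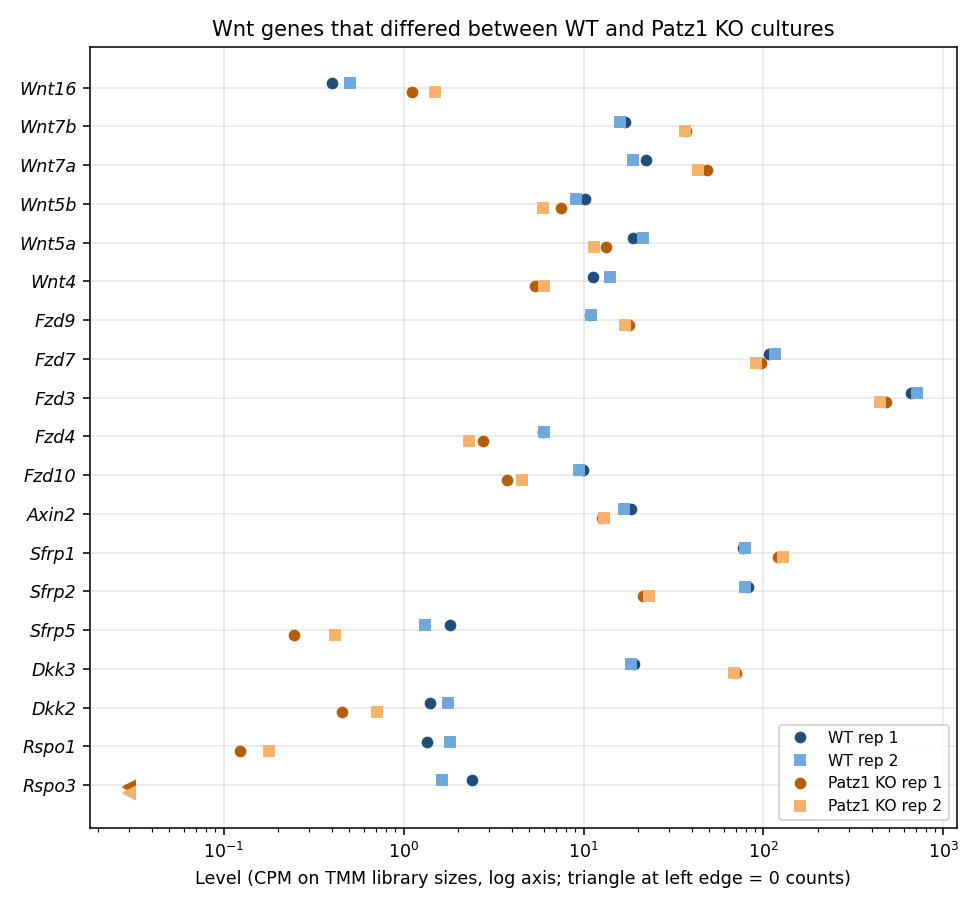
Levels of the 19 Wnt genes that differed, one gene a row, with CPM on a log axis and one point per library (blue WT, orange *Patz1* KO; circles replicate 1, squares replicate 2). The WT and KO points do not overlap for any gene shown, and *Rspo3*, with 0 counts in both KO libraries, is drawn as triangles at the left edge.

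Among the ligands, the paralogues *Wnt7a* and *Wnt7b* rose, while *Wnt4*, *Wnt5a* and *Wnt5b* fell. *Wnt7a* (chr6:91363981-91411363, GRCm38), a ligand of the developing nervous system that also shapes synapses, measured 22.4 and 18.8 CPM in WT and 48.4 and 43.1 CPM in KO. Both KO values were above both WT values, a 2.23-fold rise (log2 fold change 1.16 ± 0.12, SE, edgeR adjusted p = 2.623e-07). *Wnt7b* (chr15:85535437-85582473), its closest relative, measured 17.0 and 16.0 CPM in WT and 37.1 and 36.5 CPM in KO. The change was again 2.23-fold (log2 fold change 1.16 ± 0.11, SE, edgeR adjusted p = 1.901e-07), although the genes lie on different chromosomes. The ratio of *Wnt7a* to *Wnt7b*, per length of exon, was 2.03 and 1.81 in WT and 2.02 and 1.82 in KO, and so overlapped between groups. Exons of *Wnt7b* overlap the antisense gene *AU022754*, and since the strand setting of the counting was not given, reads of the 2 genes cannot be told apart.

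*Wnt16*, a ligand known from bone and joints, was counted 6 and 8 times in WT and 27 and 25 times in KO. It rose by 1.48 ± 0.47 on the log2 scale (SE, edgeR adjusted p = 0.01469), at a level of at most 1.49 CPM. The call did not hold without WT replicate 1 (adjusted p = 0.1169, edgeR), without WT replicate 2 (0.06919) or in the DESeq2 Wald test (0.1193).

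*Wnt4*, a ligand best known from kidney and gonad that is also made in the spinal cord, measured 11.3 and 14.0 CPM in WT and 5.36 and 6.02 CPM in KO. The KO levels were 2.24-fold lower (log2 fold change -1.17 ± 0.18, SE, edgeR adjusted p = 3.362e-05). *Wnt5a*, the main ligand of the planar polarity route, measured 18.9 and 21.5 CPM in WT and 13.3 and 11.5 CPM in KO, again without overlap. It fell by 0.70 ± 0.14 on the log2 scale (SE, edgeR adjusted p = 4.358e-04), with exons that overlap the antisense gene *Gm2670*. Its relative *Wnt5b* measured 10.1 and 9.05 CPM in WT and 7.55 and 5.96 CPM in KO (log2 fold change -0.49 ± 0.18, SE, edgeR adjusted p = 0.03399). For *Wnt5b* the direction held but the threshold was missed without WT replicate 1 (adjusted p = 0.2257), without WT replicate 2 (0.07837), without KO replicate 2 (0.1081) and with DESeq2 (0.1476).

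The other tested ligands were low and did not pass the test. *Wnt11*, *Wnt2b*, *Wnt3* and *Wnt9a* had log2 fold changes of -0.14, -0.60, -0.32 and 0.10 and edgeR adjusted p of 0.789, 0.2291, 0.6577 and 0.8336, with 7 to 34 counts per library. *Wnt3*, with counts of 7 and 11 in WT and 9 and 10 in KO, lay just inside the limit for testing. Just outside it were *Wnt6*, counted 4 and 9 times in WT and 7 and 6 times in KO, and *Wnt1*, the roof plate and midbrain ligand, counted once in each WT library and 5 and 9 times in KO. The midbrain and hindbrain markers *En1* and *Pax8* were higher in the same KO libraries and *En2* lower, as given above. *Pax8* entered the test through KO alone, and the part of these markers in the *Wnt1* counts was not tested. For *Wnt1* the ratio of KO to WT was 5.26, with an exact 95% interval from counting error of 1.21 to 47.6. *Wnt8b* went the other way, with 6 and 5 counts in WT and 0 and 1 in KO, a ratio of WT to KO of 14.7 with an interval of 2.13 to 631. With no filter on low counts, *Wnt8b* would pass the threshold (edgeR adjusted p = 0.0439) and *Wnt1* would not (0.1334). *Wnt10a* was counted 0 and 2 times in WT and 5 and 2 times in KO, and *Wnt2* 1 and 2 times in WT and 2 and 4 times in KO. *Wnt3a*, *Wnt9b* and *Wnt10b* stayed at 3 or fewer counts in every library, and *Wnt8a* had no count, so the depth allows no statement on their change.

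*Wnt7a* and *Wnt7b* held a larger part of the ligand transcripts in the KO. Per length of exon, *Wnt7a* and *Wnt7b* made up 49.9% and 44.7% of the summed level of the 19 ligands in WT and 75.2% and 74.7% in KO. *Wnt4*, *Wnt5a* and *Wnt5b* made up 42.4% and 46.1% in WT and 19.2% and 18.3% in KO. These 5 genes together held 90.8% to 94.4% of the ligand level in each library, as the plot of ligand proportions shows. The summed ligand level was 20.8 ± 0.34 CPM per kilobase in WT and 29.2 ± 1.54 in KO (SD, n = 2). With 2 libraries against 2, an exact permutation test cannot go below p = 0.333, so the sums and shares are described by their lack of overlap alone. Without division by length, the 14 remaining ligands summed to 5.84 and 6.48 CPM in WT and 5.98 and 6.61 CPM in KO, which overlap. On that scale all 19 ligands summed to 85.5 and 85.9 CPM in WT and 117.6 and 109.7 CPM in KO.

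**Figure D2:**
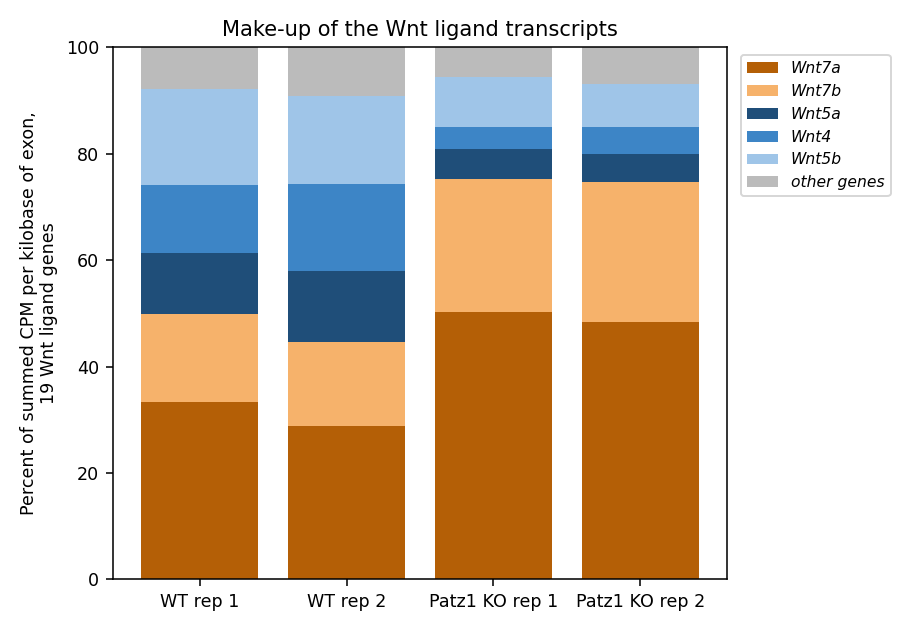
Stacked bars give the percent of the summed level of the 19 Wnt ligand genes, in CPM per kilobase of annotated exon, that each gene held in each library (x axis, 2 WT and 2 *Patz1* KO libraries). The orange parts, *Wnt7a* and *Wnt7b*, reach 44.7% to 49.9% in WT and 74.7% to 75.2% in KO.

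The 10 Frizzled receptors were each tested, and 5 were called, 4 of them lower in the KO, a share of 50% beside the 47.4% of all genes. *Fzd3* (chr14:65192449-65262463), a receptor with roles in axon growth and guidance, measured 661 and 715 CPM in WT and 477 and 447 CPM in KO. It was 1.49-fold lower in the KO (log2 fold change -0.57 ± 0.10, SE, edgeR adjusted p = 1.59e-04). *Fzd10* measured 9.998 and 9.43 CPM in WT and 3.75 and 4.53 CPM in KO, with no overlap, a 2.36-fold fall (log2 fold change -1.24 ± 0.20, SE, edgeR adjusted p = 4.815e-05). *Fzd4*, which also serves as receptor for the protein Norrin in blood vessels, measured 5.97 and 6.04 CPM in WT and 2.76 and 2.32 CPM in KO (log2 fold change -1.22 ± 0.23, SE, edgeR adjusted p = 3.066e-04). The gene for Norrin itself, *Ndp*, rose from 2.08 and 2.89 CPM in WT to 6.84 and 6.97 CPM in KO (log2 fold change 1.47 ± 0.24, SE, edgeR adjusted p = 5.856e-05). Endothelial markers fell in the same libraries as given above, and their part in the fall of *Fzd4* was not tested. *Fzd7* was lower by a smaller amount, with 108 and 116 CPM in WT and 96.8 and 91.3 CPM in KO (log2 fold change -0.25 ± 0.09, SE, edgeR adjusted p = 0.02853). That call was lost without WT replicate 1 (adjusted p = 0.09651), without WT replicate 2 (0.3349), with no filter on low counts (0.05715) and with DESeq2 (0.09256).

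*Fzd9* was the Frizzled gene that rose. It measured 10.8 and 10.9 CPM in WT and 17.9 and 17.1 CPM in KO, a 1.61-fold change with no overlap (log2 fold change 0.69 ± 0.14, SE, edgeR adjusted p = 4.676e-04). *Fzd1*, *Fzd2*, *Fzd5*, *Fzd6* and *Fzd8* did not pass, with log2 fold changes from -0.49 for *Fzd5* to 0.07 for *Fzd8* and edgeR adjusted p from 0.1077 to 0.9522. The log2 fold change of *Fzd5* was -0.61 without KO replicate 2 and -0.25 without WT replicate 2. No alternative that kept every library called it. Summed per length of exon, the Frizzled genes measured 112 and 119 CPM per kilobase in WT and 96.1 and 90.3 in KO. *Fzd3* held 46.0% and 47.0% of that sum in WT and 38.8% and 38.6% in KO. The Frizzled sum without *Fzd3* was 60.7 and 62.9 CPM per kilobase in WT and 58.9 and 55.4 in KO, so that most of the difference in the sum lay in *Fzd3*.

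The co-receptors, to which DKK proteins bind, did not pass the test. *Lrp6* measured 127 and 139 CPM in WT and 151 and 134 CPM in KO, which overlap (log2 fold change 0.10 ± 0.09, SE, edgeR adjusted p = 0.3716). *Lrp5* measured 29.1 and 30.7 CPM in WT and 29.1 and 24.6 CPM in KO (log2 fold change -0.15 ± 0.11, SE, edgeR adjusted p = 0.2936). Both values moved with the KO library left out. The log2 fold change of *Lrp5* was -0.28 without KO replicate 1 and -0.037 without KO replicate 2. For *Lrp6* it was 0.018 without KO replicate 1 and 0.19 without KO replicate 2.

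*Axin2*, a scaffold of the β-catenin destruction complex and a widely used readout of β-catenin signalling, was lower in the KO. It measured 18.2 and 16.8 CPM in WT and 12.7 and 13.0 CPM in KO, without overlap (log2 fold change -0.44 ± 0.13, SE, edgeR adjusted p = 0.01107). The direction held in every alternative, but the threshold was missed without WT replicate 1 (adjusted p = 0.139) and with DESeq2 (0.07599), and its exons overlap the antisense gene *Gm11670*. *Lef1* and *Tcf7*, which carry the β-catenin signal to DNA and are targets of it in many tissues, were low and did not pass. *Lef1* had counts of 24 and 15 in WT and 37 and 22 in KO (log2 fold change 0.17, edgeR adjusted p = 0.7369), and *Tcf7* had 30 and 41 in WT and 54 and 30 in KO (log2 fold change -0.18, edgeR adjusted p = 0.6533). Leaving out WT replicate 2 turned the sign of both, to -0.17 for *Lef1* and 0.016 for *Tcf7*.

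**Figure D3:**
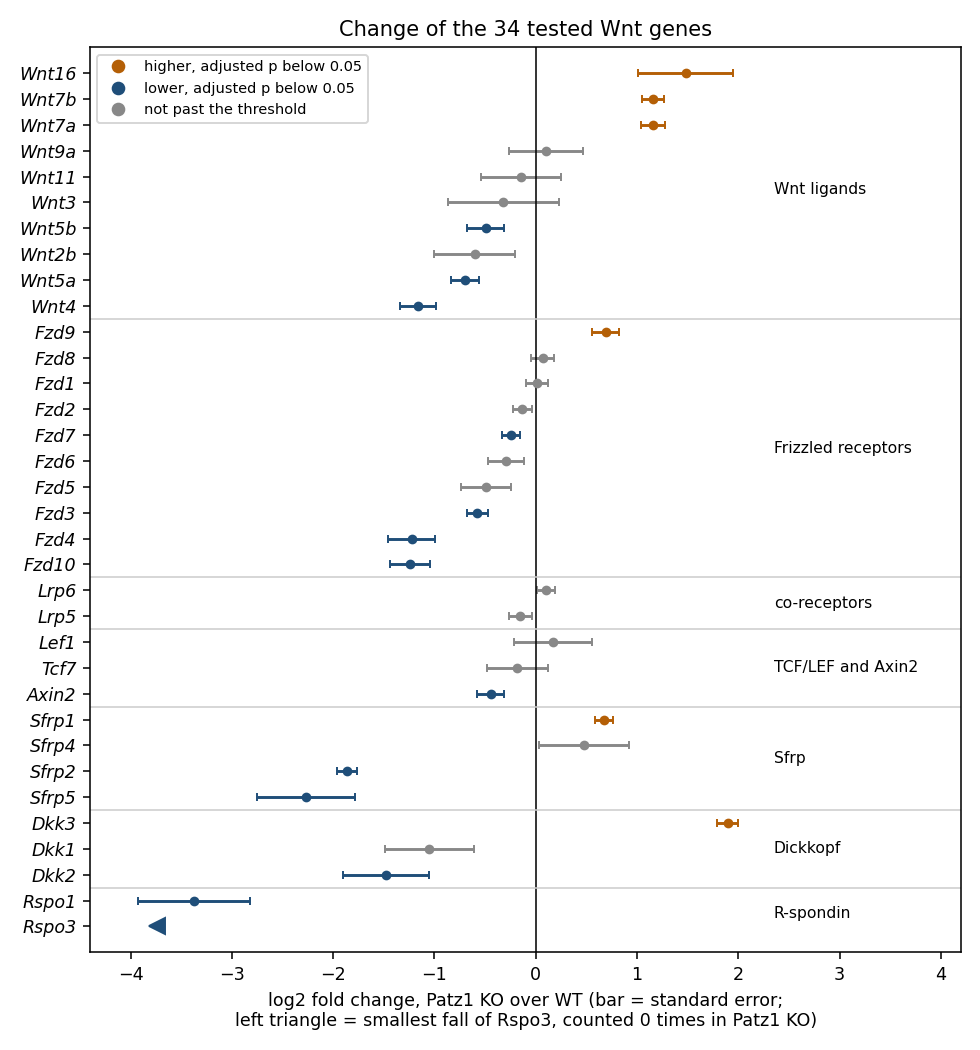
Log2 fold change of *Patz1* KO over WT for the 34 tested Wnt genes, grouped by role, with bars of 1 standard error (orange higher, blue lower, grey not past the threshold). *Dkk3* lies highest at 1.89, *Rspo3* is drawn as a triangle at its smallest fall, and the place of *Rspo1* rests on 3 counts in each KO library.

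The SFRP genes encode secreted proteins that carry the ligand-binding domain of Frizzled, and they moved in both directions. *Sfrp2* (chr3:83766321-83774316) fell 3.64-fold, from 82.2 and 79.3 CPM in WT to 21.3 and 23.2 CPM in KO (log2 fold change -1.86 ± 0.10, SE, edgeR adjusted p = 1.249e-10). Its promoter is among those shown above, and its exons overlap the antisense gene *Gm26771*. *Sfrp1* (chr8:23411502-23449632) rose 1.59-fold, from 77.2 and 79.3 CPM in WT to 121 and 129 CPM in KO (log2 fold change 0.67 ± 0.09, SE, edgeR adjusted p = 6.221e-06). The ratio of *Sfrp1* to *Sfrp2* per length of exon was 0.46 and 0.49 in WT and 2.79 and 2.73 in KO, so the order of the pair was inverted. *Sfrp5* was lower, with 27 and 21 counts in WT and 6 and 7 counts in KO (log2 fold change -2.27 ± 0.48, SE, edgeR adjusted p = 8.29e-04). *Sfrp4*, with 9 to 27 counts per library, did not pass (log2 fold change 0.48, edgeR adjusted p = 0.3962).

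Of the Dickkopf genes, *Dkk3* showed the largest rise among the tested Wnt genes. *Dkk3* (chr7:112116017-112159057), a divergent member of the family that is not a typical blocker of LRP co-receptors, measured 19.1 and 18.3 CPM in WT and 70.7 and 68.3 CPM in KO. The KO levels were 3.72-fold higher (log2 fold change 1.89 ± 0.10, SE, edgeR adjusted p = 1.267e-10). *Dkk2*, an LRP-binding modulator, was counted 21 and 28 times in WT and 11 and 12 times in KO (log2 fold change -1.48 ± 0.43, SE, edgeR adjusted p = 0.008226). The *Dkk2* call was lost without WT replicate 2 (adjusted p = 0.103), without KO replicate 1 (0.05018) and with DESeq2 (0.09183). *Dkk1*, the classic inhibitor and itself a β-catenin target, was counted 19 and 17 times in WT and 13 and 10 times in KO and missed the threshold (log2 fold change -1.05 ± 0.44, SE, edgeR adjusted p = 0.05866). Of the alternatives, only the filter of 10 counts in every library would call *Dkk1* (edgeR adjusted p = 0.03752). The others did not, among them no filter on low counts (0.1053, edgeR) and the DESeq2 Wald test (0.2998). *Dkk4* stayed at 3 or fewer counts.

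The R-spondins showed the largest falls of the tested Wnt genes, at low levels. *Rspo1* and *Rspo3* reached 10 counts in WT only, so they entered the test through the group where they were high. That selection favours a call of lower, and their place and p-values are to be read with it. *Rspo3* (chr10:29452416-29535867) was counted 36 and 26 times in WT and was not counted in either KO library, at least 13.4-fold lower when each KO library is set to a floor of 3 counts (edgeR adjusted p = 2.58e-06). *Rspo1* (chr4:124986430-125009099) had 20 and 29 counts in WT and 3 in each KO library, a ratio of WT to KO of 10.9 with an exact 95% interval from counting error of 4.66 to 31.1 (edgeR adjusted p = 6.951e-05). *Rspo2* was counted 3 and 4 times in WT and 4 and 0 times in KO, and *Rspo4* at most 2 times, so neither was tested. The summed R-spondin level was 4.03 and 3.71 CPM in WT and 0.289 and 0.298 CPM in KO. *Rspo1* and *Rspo3* are themselves among the 11 roof plate and dorsal neural tube markers, and without them the list summed to 2.68 and 2.64 CPM in WT and 1.65 and 1.85 CPM in KO. These other 9 markers did not reach 10 counts in 2 libraries, and *Gdf7*, *Gdf10*, *Pax7* and *Atoh1* were at 3 or fewer counts in every library. Mesenchyme is another place where R-spondins are made, and its markers fell with them from sums of 169 to 188 CPM to 21.0 to 21.8 CPM, but their part in the fall of *Rspo1* and *Rspo3* was not tested. Exons of *Rspo3* overlap the antisense gene *Gm48159*.

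To rank the genes against each other, levels were taken per kilobase of annotated exon. In WT the order began with *Fzd3* at 53.7, *Sfrp2* at 37.5, *Fzd7* at 24.6 and *Sfrp1* at 17.9 CPM per kilobase, each step beyond the spread of the libraries. In KO, *Fzd3* still led at 36.1, followed by *Sfrp1* at 28.5, *Fzd7* at 20.8 and *Dkk3* at 20.7 CPM per kilobase. *Fzd7* and *Dkk3* did not differ beyond their spread in KO, with 21.4 and 20.1 CPM per kilobase for *Fzd7* and 21.0 and 20.3 for *Dkk3*. *Sfrp2* moved from rank 2 to rank 8, *Dkk3* from 9 to 4 and *Wnt7a*, the highest ligand in both groups, from 8 to 5. *Wnt7a* measured 6.49 CPM per kilobase in WT and 14.4 in KO, and *Wnt7b* 3.37 and 7.51. The remaining steps among *Fzd2*, *Lrp6*, *Sfrp2* and *Fzd1* in KO were small, and *Lrp6*, at 11.0 and 9.83, overlapped *Sfrp2*, at 9.88 and 10.8.

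**Figure D4:**
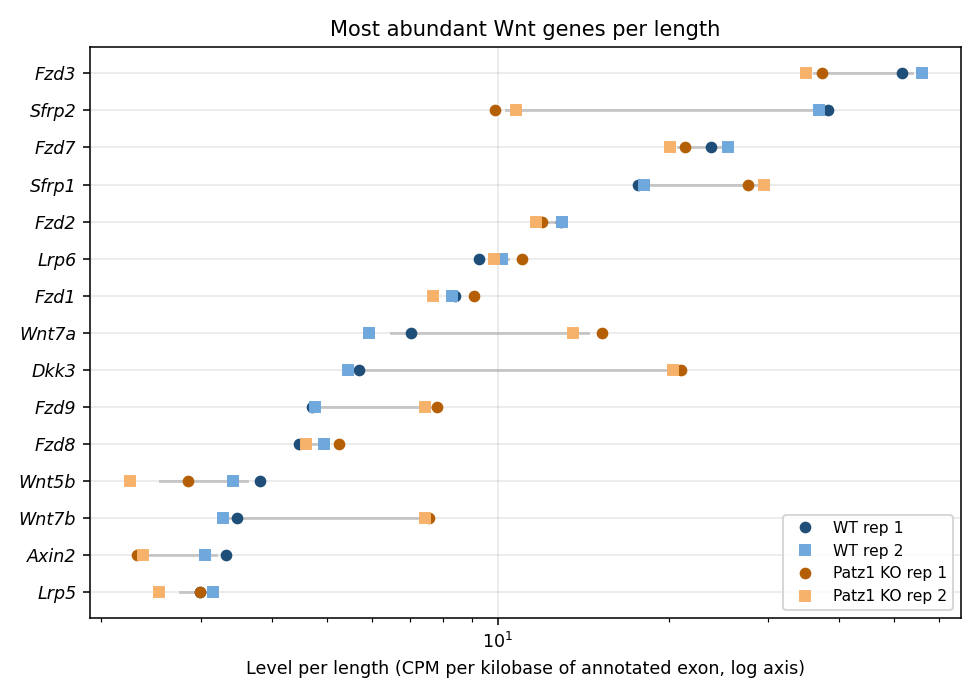
Level per length, in CPM per kilobase of annotated exon on a log axis, for the Wnt genes among the 15 highest in either group (blue WT, orange *Patz1* KO; one point per library, grey line between group means). *Sfrp2* falls from 37.5 to 10.3 while *Dkk3* rises from 5.57 to 20.7 and *Wnt7a* from 6.49 to 14.4.

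In the mouse genome (GRCm38), 4 pairs of Wnt ligand genes lie within 100 kb of each other. *Wnt6* and *Wnt10a* on chromosome 1 are 6193 bases apart, *Wnt3a* and *Wnt9a* on chromosome 11 are 16175 bases apart, *Wnt9b* and *Wnt3* on chromosome 11 are 24328 bases apart, and *Wnt10b* and *Wnt1* on chromosome 15 are 11706 bases apart. None of these 8 genes exceeded 1.40 CPM in any library. Of the 8, *Wnt3* and *Wnt9a* were tested and neither was called. Of the 11 ligand genes without such a neighbour, 8 were tested and 6 were called, beside the 47.4% called among all genes. With 2 tested genes in the pairs, this is a description of where the expressed ligands lie, with no test.

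The rest of the pathway was read from lists of genes that are not among the 46, and each share is set beside the 47.4% called among all genes. Of 32 intracellular genes, from the destruction complex to TCF partners, 9 rose, 7 fell and 16 did not pass, with a median log2 fold change of 0.06. The 3 with the smallest p were *Tle3*, a co-repressor (0.55, edgeR adjusted p = 9.228e-05), *Tcf7l2*, a TCF factor (-0.78, 2.445e-04), and *Dvl1*, a relay below Frizzled (0.62, 3.858e-04). Of the relatives of *Tle3* on the list, *Tle1* (-0.37, edgeR adjusted p = 0.003704) and *Tle4* (-0.38, 0.001851) fell and *Tle2* did not pass. *Ctnnb1*, which encodes β-catenin, did not pass (-0.11, edgeR adjusted p = 0.4308), with 922 and 960 CPM in WT and 913 and 831 CPM in KO. The number of intracellular genes called fell from 16 to 10 without WT replicate 1 and to 9 without WT replicate 2.

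Genes for other receptors and for ligand secretion counted 9 lower, 2 higher and 7 not past the threshold of 18 tested, with a median log2 fold change of -0.34. *Gpc3*, a cell surface glypican that binds WNT and Hedgehog proteins, measured 214 and 244 CPM in WT and 59.1 and 61.3 CPM in KO (-1.93, edgeR adjusted p = 3.446e-11). *Lrp4* (-1.09, 9.738e-07), an inhibitory relative of the co-receptors, and *Gpc6* (-0.94, 1.887e-06), another glypican, followed. *Gpc3* is also expressed in embryonic mesoderm and endoderm, whose markers fell in the same libraries as given above. Among 8 tested secreted modulators outside the SFRP and DKK families, *Sulf1*, a sulfatase that trims heparan sulfate (-0.80, edgeR adjusted p = 2.886e-06), and *Frzb*, the gene also known as *Sfrp3* (-1.84, 3.723e-05), fell, and *Ndp* rose as described. *Sost*, an LRP-binding inhibitor named here after its values were seen, fell too (-1.80, edgeR adjusted p = 0.001108), and 4 did not pass, so that the list had 3 lower and 1 higher, with a median of -0.33.

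A list of known targets of β-catenin signalling was read in the same way. Like the other lists it was chosen with earlier results of these data known, so its share is a description and not a test. Of its 15 tested genes, 11 fell, 1 rose and 3 did not pass, with a median log2 fold change of -0.78, beside the 23.4% lower among all genes. *Sp5*, among the 11, was counted 19 times in each WT library and 6 and 3 times in KO. It reached 10 counts in WT only, and that selection favours its call of lower. *Tnfrsf19* measured 46.8 and 52.2 CPM in WT and 9.85 and 10.7 CPM in KO (-2.27, edgeR adjusted p = 7.885e-11). The cyclin genes *Ccnd2*, with 410 and 442 CPM in WT and 202 and 230 CPM in KO (-0.98, 2.745e-07), and *Ccnd1* (-1.21, 5.464e-07), drivers of cell cycle entry with many inputs besides Wnt, fell as well. *T*, *Cdx1* and *Cdx2*, targets that mark early posterior mesoderm and neural progenitors, had too few counts to be tested. *Nkd1*, *Nkd2*, *Tcf7l2*, *Znrf3*, *Rnf43*, *Lgr5* and *Apcdd1* are also counted in other pathway lists here. Of 19 planar polarity genes, 5 rose, 3 fell and 11 did not pass, with a median of -0.08. *Vangl1* (-0.99, edgeR adjusted p = 1.124e-05) and *Celsr1* (-0.53, 3.322e-04), core membrane proteins of that route, fell, and *Daam2*, which links Dishevelled to the cytoskeleton (1.06, 2.619e-05), rose. Their relatives did not share the fall. *Vangl2* rose (0.42, edgeR adjusted p = 0.001143), and *Celsr2* and *Celsr3* did not pass. The planar polarity count fell from 8 to 5 without WT replicate 2 and with DESeq2.

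**Figure D5:**
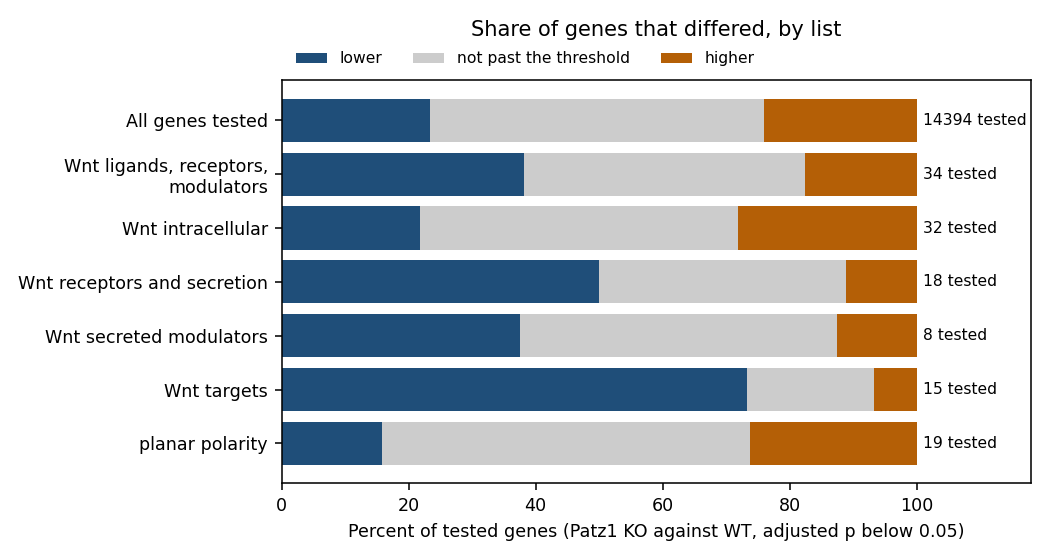
Percent of tested genes lower (blue), not past the threshold (grey) and higher (orange) in *Patz1* KO, for all genes, the Wnt ligands, receptors and modulators, and 5 lists of other pathway genes. The target list has the largest blue part, 11 of 15 genes, and all genes the reference of 23.4% lower and 24.0% higher. The lists were chosen with earlier results of these data known.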

How the data were processed

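RNA-seq of ribosomal RNA-depleted total RNA from MN cultures was analysed in 2 WT and 2 *Patz1* KO libraries, grouped by the genotype label. The authors deposited raw counts per gene symbol for each library, mapped to mm10. The study's methods name Bowtie 2 for mapping. The submitters' processing notes list TopHat2 2.1.1, Bowtie2 2.3.1, featureCounts 1.6.2 and DESeq2, with no order. The annotation and strand setting were not given in the sources used here.

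Counts were tested with edgeR 4.0.16 in R 4.3.3 (TMM, glmQLFit and glmQLFTest, group as the only term) on the 14394 genes with 10 or more counts in at least 2 libraries, with two-sided p-values adjusted by Benjamini-Hochberg over these genes and a threshold of 0.05. The fit was tested on simulated data first. CPM used TMM library sizes, and levels between genes were divided by the union of GENCODE exons (GRCm38). Replicates differed beyond counting noise. The chi-square per gene was 10.3 in WT and 22.9 in KO over all tested genes, and 2.406 and 5.945 over the tested Wnt genes. Intervals for low counts and the floor of 3 counts cover counting error only.

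The Wnt genes and the gene lists were chosen with earlier results of these data known. Every member was accounted for, the 3 genes with the smallest p were named from each pathway list, and marker lists were given as sums and counts of calls. In all, 12 alternatives were run, including the DESeq2 1.42.0 Wald test, a replicate block and the omission of each library. Same-numbered replicates did not deviate together (correlation of deviations 0.00534), so the numbers were not taken to pair the samples.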

Additional observations from a re-analysis of the deposited data

How the results depend on the processing

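The count of Wnt genes called was 14 to 20 over the 12 alternatives, against 19, and 14 of the 19 genes were called in every alternative that gave them a value (*Wnt4*, *Wnt5a*, *Wnt7a*, *Wnt7b*, *Fzd3*, *Fzd4*, *Fzd9*, *Fzd10*, *Sfrp1*, *Sfrp2*, *Sfrp5*, *Dkk3*, *Rspo1* and *Rspo3*). Of these, *Rspo1*, *Rspo3* and *Sfrp5* have no value when 10 counts are required in every library, which leaves 11 genes called under all 12 alternatives. *Axin2*, *Dkk2*, *Fzd7*, *Wnt5b* and *Wnt16* kept their direction and missed the threshold in some, as given above. The DESeq2 Wald test called 14 Wnt genes and 5121 of all genes, against 6822. With 1 library left out, the calls were 15 to 20 for the Wnt genes, 4570 to 7782 for all genes, 9 to 18 for the intracellular list and 5 to 12 for planar polarity, for which DESeq2 also gave 5. With the replicate block 19 Wnt genes and 7321 genes in all were called and no Wnt gene changed its call. Signs turned only for genes that had not passed the threshold. *Fzd1* went from 0.0091 to -0.017 on unscaled library sizes. Without 1 library, log2 fold changes spanned -0.12 to 0.12 for *Fzd1*, -0.036 to 0.16 for *Fzd8*, -0.17 to 0.60 for *Lef1*, -0.36 to 0.016 for *Tcf7* and -0.64 to 0.028 for *Wnt3*. The cause was not tested. A filter of 10 counts in every library left 28 of the 34 Wnt genes. Other scalings moved the median of all genes to -0.0042 and -0.030. Depth limits the 12 Wnt genes that were not tested, and 2 libraries a group limit the rest.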
